A study of Drosophila melanogaster with 4 samples.

Results

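This account covers the H3K4me3 regions that lie next to the centromeres, on the heterochromatic scaffolds, on unplaced sequence and on chromosome 4 of Drosophila melanogaster. Members were chosen by position alone: every enriched region of the combined list on chromosome 4, on unplaced sequence U, on a scaffold whose name ends in Het, or in the 2 Mb next to the centromere of 2L, 3L or 3R on FlyBase release 5. They numbered 325 of the 5539 enriched regions of the combined list, with 55 on chromosome 4, 32 on U, 45 on the 6 Het scaffolds, 51 in the window of 2L, 27 in that of 3L and 115 in that of 3R. The regions were compared with the remaining 3139 regions of 2L, 3L and 3R, called the rest of these arms. Chromatin came from whole wild-type Oregon-R embryos of 14 to 16 h and was immunoprecipitated with a commercial H3K4me3 antibody, ab8580 of lot 2. There were 2 H3K4me3 ChIP samples, each with its own list, and 2 Input samples (chromatin without immunoprecipitation) that served as background of the authors' calls and enter no comparison of their own. No other genotype, stage or treatment was studied, and whole embryos mix all cell types, so a mark in few cells and a weak mark in many cannot be told apart. Nothing in the labels tells whether the 2 ChIP samples are from different embryo collections, so their spread may be technical.

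H3K4me3 is laid down by methyltransferases of the COMPASS family and sits at the start of genes that are being transcribed. Pericentric heterochromatin is rich in repeated DNA, carries H3K9 methylation and is bound by HP1a, yet it holds protein-coding genes such as light, some of which need this chromatin for normal expression. Chromosome 4 of the fly is small and also bound by HP1a along much of its length, together with POF, a protein dedicated to this chromosome, and its genes include eyeless, an eye regulator, and cubitus interruptus, the transcription factor of Hedgehog signalling. Scaffold and U sequences of release 5 are pieces of heterochromatin that could be assigned to a chromosome (Het) or could not (U). Members are therefore given by position, and no region was assigned to a gene, because no annotation of release 5 was used. The RefSeq table of release 6 lists 80 protein-coding genes on chromosome 4, against 55 combined regions there.

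Replicate 1 had 9260 enriched regions and replicate 2 had 4959, of which 436 and 296 met the same position rule. Read depth and the scale of the deposited score are unknown, and scores are therefore compared as differences only. Rows typed as depleted were absent from these sequences in all 3 lists. With 2 replicates, an exact sign-flip permutation test over replicates cannot give a two-sided p below 0.5, so intervals (all 95%) on shares, densities and medians are given instead. They treat regions as independent, which neighbouring regions are not, and cover counting error only.

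The pericentric windows of 2L and 3L were sparse in H3K4me3 regions, and that of 3R was not. Density in the combined list was 25.5 regions per Mb in the 2L window, against 43.0 on the rest of 2L, and 13.5 per Mb in the 3L window, against 45.4 on the rest of 3L. In the 3R window it was 57.5 per Mb, against 46.8 on the rest of 3R. Exact Poisson intervals were 19.0 to 33.5 per Mb for the 2L window, 8.90 to 19.6 for the 3L window and 47.5 to 69.0 for the 3R window. The direction on each arm was the same in both replicates. In replicate 1 the 2L window had 44.5 regions per Mb, against 77.5 on the rest of 2L, the 3L window 26.5, against 82.6 on the rest of 3L, and the 3R window 90.5, against 78.3 on the rest of 3R. In replicate 2 the 2L window had 25.5 per Mb, against 38.0 on the rest of 2L, the 3L window 12.5, against 41.5 on the rest of 3L, and the 3R window 50.0, against 40.6 on the rest of 3R. Taken over all 3 windows, the density was 32.2 per Mb, against 45.2 on the rest of these arms, and the exact sign-flip permutation p over the 2 replicates was 0.5, the smallest possible.

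Towards the inner end of 3L the regions thinned out step by step, while on 3R they came close to the end of the sequence. On 3L the 4 bins of 0.5 Mb held 2, 5, 6 and 14 combined regions, counted outward from the inner end. On 2L the same bins held 7, 15, 11 and 18 regions. On 3R they held 34, 23, 41 and 17, so the bin between 1 and 1.5 Mb had the highest density of the 3 windows, at 82 per Mb. Regions covered 0.93% of the innermost 0.5 Mb of 3L and 22.0% of that of 3R. In the 2 Mb outward of each window, density was 48.0 per Mb on 2L, 44.0 on 3L and 33.5 on 3R, so the 3R window was denser than the stretch beside it and those of 2L and 3L were sparser. All bins of the 2L and 3L windows hold under 20 regions each.

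**Figure D1:**
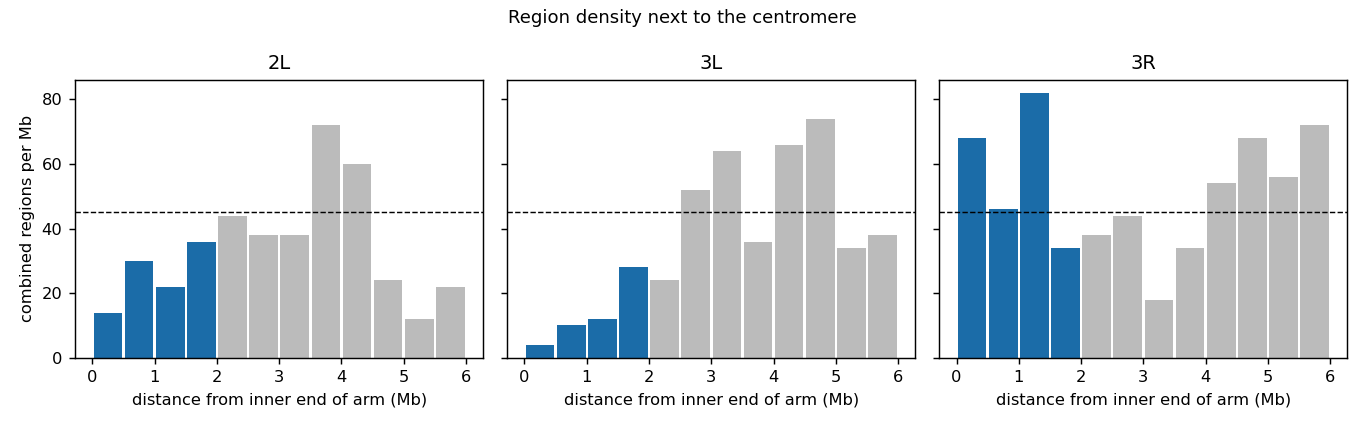
Combined H3K4me3 regions per Mb in bins of 0.5 Mb, by distance from the inner (centromere-side) end of 2L, 3L and 3R; blue bars lie in the 2 Mb windows, grey bars outside them, and the dashed line is the density of the rest of the 3 arms, 45.2 per Mb. Bars fall to 4 per Mb at the end of 3L and stand at 68 per Mb at the end of 3R.

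At each of the 3 limits the first region inside scored higher than the first outside, which is given as a description. On 2L the first region inside the limit, from 21050063 to 21054196, scored 1.40, and the first outside, from 20924780 to 20926996, scored 0.84. On 3L the first inside, from 22659075 to 22663385, scored 1.24, and the first outside, from 22459784 to 22461247, scored 0.36. On 3R the first inside, from 1980158 to 1983736, scored 1.41, and the first outside, from 2023719 to 2026139, scored 0.89.

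Within the windows, regions were about as wide as elsewhere on the arms. Their median score was somewhat higher in the combined list, with intervals that overlapped those of the rest. Their median width in the combined list was 2686 bases (order-statistic interval 2609 to 2880), against 2746 bases (2701 to 2811) on the rest of these arms. Their median score was 1.76 (1.36 to 2.03), against 1.505 (1.43 to 1.58) on the rest. The windows' median differed from the rest's by 0.0077 in replicate 1 and by 0.082 in replicate 2. By window, the median in the combined list was 1.66 on 2L, 1.31 on 3L and 1.84 on 3R, and the interval of each of the 3 windows included the rest's median. The 2L and 3L windows were below the rest in both replicates. Differences in replicates 1 and 2 were -0.055 and -0.13 on 2L, -0.023 and -0.48 on 3L, and 0.024 and 0.27 on 3R. Regions of at least 5 kb made up 9.84% of the regions of the windows, or 19 of 193, against 11.9% of the rest and 11.7% of all combined regions. Of these 19, 14 lay in the 3R window and 5 in that of 2L.

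The strongest regions of the windows stood within the top 10% of the combined list, and with a single exception both replicates held them. On 3R the 3 highest scores were 3.20 from 1471544 to 1476706, 3.12 from 1448069 to 1452158 and 3.10 from 1055922 to 1059853. These scored 1.90, 2.48 and 1.19 in replicate 1 and 3.77, 3.55 and 3.67 in replicate 2, in the same order. The widest of the 3R window ran from 1288225 to 1298513 (10289 bases, score 2.64), the widest of all 325 members. On 3L the highest score, 3.06 from 22862506 to 22866965, was also the widest region of that window at 4460 bases, and scored 1.95 in replicate 1 and 3.49 in replicate 2. It was followed on 3L by 2.91 from 22732765 to 22736619 and 2.79 from 22708620 to 22712299, so the 3 strongest lay within the outer 0.5 Mb of the window. On 2L, scores of 3.00 from 21679847 to 21683096 and 2.88 from 22245856 to 22248722 were present in both replicates, with 2.28 and 1.93 in replicate 1 and 3.35 and 3.34 in replicate 2. The widest region of the 2L window ran from 21161570 to 21170351 (8782 bases, score 2.17). The highest score of the 2L window, 3.11 from 21424221 to 21425221, is the exception and met no region of either replicate.

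Support by both replicates was lower on chromosome 4 and U than on the rest of the arms, and not lower in the windows. A combined region was called met when it overlapped a region of a replicate by at least 1 base, and 77.7% of all combined regions were met by both replicates. Of the 325 members, 233 were met by both (71.7%, Wilson interval 66.6% to 76.3%), against 2433 of 3139 on the rest of these arms (77.5%, 76.0% to 78.9%). The difference, -5.82 percentage points, had a Newcombe interval of -11.1 to -0.96, and it was -1.74 points without U. In the windows the share was 82.4% (159 of 193), 4.87 points above the rest with an interval of -1.28 to 9.83. On the Het scaffolds it was 71.1% (32 of 45), with a difference of -6.40 points (-20.9 to 4.86). On chromosome 4 it was 56.4% (31 of 55), with a difference of -21.1 points (-34.3 to -8.79), and on U 34.4% (11 of 32), with a difference of -43.1 points (-57.2 to -25.8). With both 1-base overlaps replaced by reciprocal overlaps of at least 50%, the difference of all members was -1.43 points. By group, chromosome 4 was then at 49.1% and U at 34.4%, below the 70.7% of the rest. The Het scaffolds were at 71.1% and the windows at 80.3%.

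**Figure D2:**
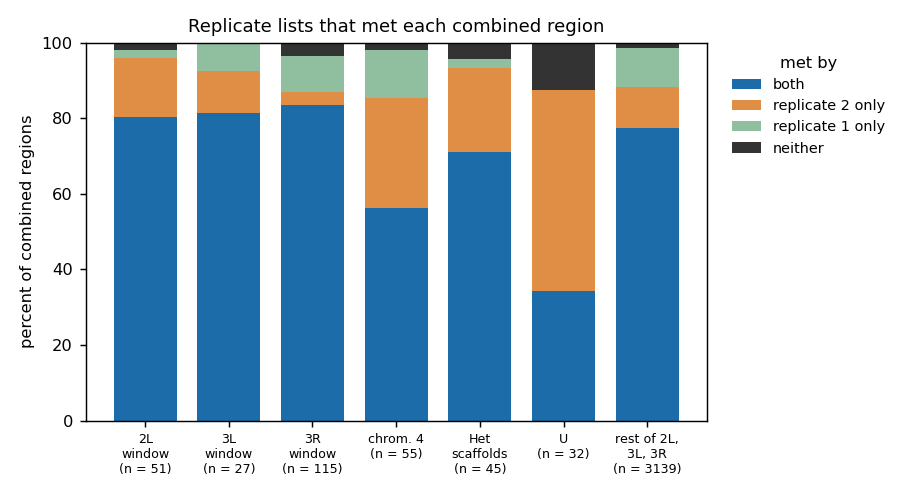
Percent of combined regions met by both replicates, by replicate 2 only, by replicate 1 only or by neither, for each group of members and for the rest of 2L, 3L and 3R; n is the number of combined regions. The blue part falls to 56.4% on chromosome 4 and 34.4% on U, and the orange part (replicate 2 only) is 53.1% on U.

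The missing support was on the side of replicate 1. Replicate 2 met 89.5% of the members, against 88.1% of the rest and 88.8% of all combined regions. Replicate 1 met 78.5% of the members, against 87.8% of the rest and 87.2% of all. On U, replicate 2 met 28 of 32 regions and replicate 1 met 11, so 17 were met by replicate 2 only (53.1%) and 0 by replicate 1 only, which by the Wilson interval allows a share of up to 10.7%. On chromosome 4, 16 regions were met by replicate 2 only (29.1%) and 7 by replicate 1 only (12.7%), against 10.6% and 10.3% on the rest and 11.1% and 9.51% of all combined regions. On the Het scaffolds 10 of 45 were met by replicate 2 only and 1 by replicate 1 only. In the 3R window 4 of 115 were met by replicate 2 only (3.48%) and 11 by replicate 1 only (9.57%). The share met by replicate 1 only was thus near the 9.51% of all combined regions, and that met by replicate 2 only was below the 11.1% of all.

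The replicates' own lists differed in the same places. Replicate 1 had 1.33 times as many regions as replicate 2 on chromosome 4, 1.75 times in the 2L window, 2.12 times in the 3L window and 1.81 times in the 3R window, against 1.98 times on the rest of 2L, 3L and 3R. On the Het scaffolds replicate 1 had 38 regions and replicate 2 had 42, a ratio of 0.905, and on U replicate 1 had 11 and replicate 2 had 30, a ratio of 0.37. With replicate 1 reduced to its 4959 highest scores, it had 27 regions on chromosome 4, against 48 in replicate 2, and 97 in the 3R window, against 100 in replicate 2. All 11 regions of replicate 1 on U met replicate 2, where 50.0% of all regions of replicate 1 did, and 11 of the 30 regions of replicate 2 on U met replicate 1 (36.7%), where 87.3% of all regions of replicate 2 did. Per the labels, Input sample 2 was the background for replicate 1 and Input sample 1 for replicate 2, and the treatment of repeated reads is not given; their part in this difference was not tested.

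Support on chromosome 4 and U was also lower at matched score. Members were set beside the rest within quartiles of score over the whole combined list, whose bounds were 0.55, 1.55 and 2.36. In the second quartile both replicates met 18.8% of U regions (3 of 16) and 65.0% of chromosome 4 regions (13 of 20), against 87.3% of the rest (671 of 769). In the same quartile the share was 71.4% on the Het scaffolds (10 of 14) and 89.1% in the windows (41 of 46). In the 2 upper quartiles all 20 regions of the Het scaffolds and 15 of 16 on chromosome 4 were met by both, against 1530 of 1537 on the rest, while on U 7 of 11 were. If each quartile of a group had the share of the rest, 70.3% of chromosome 4 regions and 82.2% of U regions would have been met by both, against the observed 56.4% and 34.4%. The same calculation gave 78.2% for the Het scaffolds, where 71.1% was observed, and 79.9% for the windows, where 82.4% was observed.

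**Figure D3:**
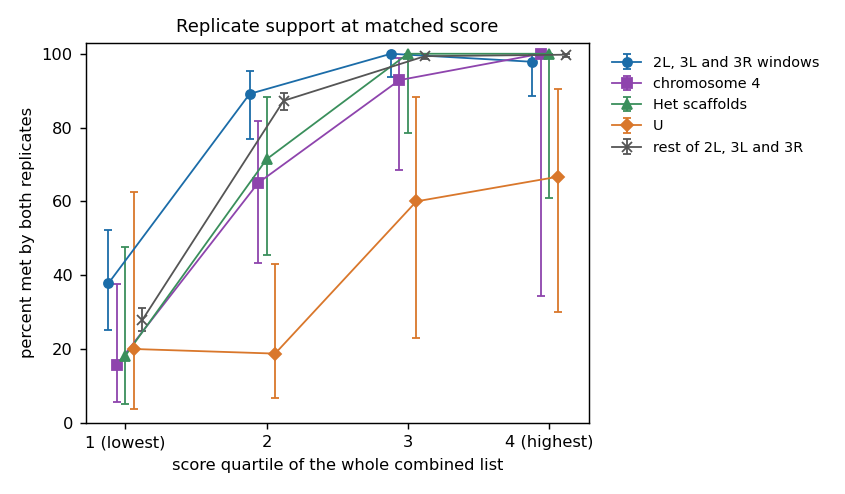
Percent of combined regions met by both replicates (Wilson 95% interval) by score quartile of the whole combined list, for the 3 pericentric windows together, chromosome 4, the Het scaffolds, U and the rest of 2L, 3L and 3R. In the second quartile U stands at 18.8% and chromosome 4 at 65.0%, below the rest at 87.3%, while the windows stand at 89.1%.

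Median scores of the scaffold and U regions were above the rest's median in replicate 1 and below it in replicate 2, over lists that hold different regions. On U the median was 1.29 in replicate 1, against 0.61 on the rest, and 1.43 in replicate 2, against 2.19 on the rest. On the Het scaffolds it was 1.07 in replicate 1, against 0.61 on the rest, and 1.80 in replicate 2, against 2.19 on the rest, and in both lists its interval included the rest's median (0.59 to 1.25 in replicate 1 and 1.33 to 2.40 in replicate 2). Single scaffolds differed: 3RHet was at 0.53 in replicate 1 and XHet at 2.59 in replicate 2. At the 11 U positions held by both replicates, the median of replicate 2 was 2.41, against 2.43 over the pairs on the rest. Chromosome 4 was below the rest in replicate 2, at 1.49, against 2.19. In replicate 1 it was at 0.57 (interval 0.48 to 0.66), against 0.61, and with that list reduced to its 4959 highest scores it was at 0.93, against 0.89 on the rest. The 3R window was above the rest in both, at 0.64 in replicate 1 and 2.46 in replicate 2. Over all members the combined list gave a median of 1.400, against 1.505 on the rest. The difference of -0.10 had no common direction, at 0.015 in replicate 1 and -0.29 in replicate 2 (exact sign-flip permutation p = 1), and it was 0.0091 without chromosome 4.

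**Figure D4:**
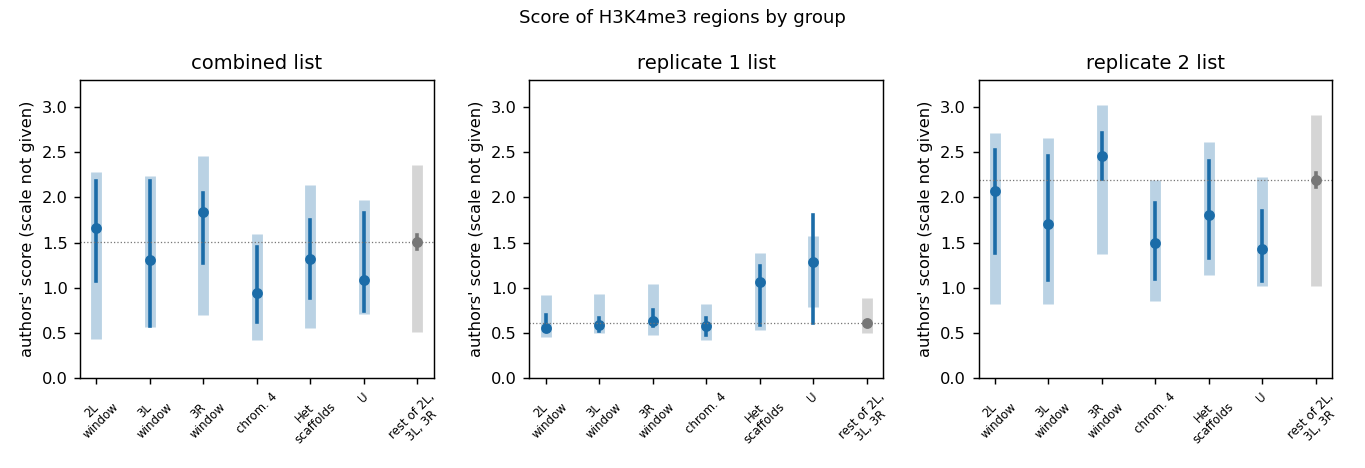
Authors' score (scale not given) of the regions of each group of members and of the rest of 2L, 3L and 3R, in the combined list and in each replicate's list; points are medians, thin lines their 95% order-statistic intervals, and broad bars the middle 50% of regions, with the rest's median dotted. Medians of the Het scaffolds and U lie above the dotted line in replicate 1 and below it in replicate 2.

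At positions where both replicates had a region, the median gap between their scores was smaller over all members than on the rest. This did not hold in the 3R window or on U. Pairs were formed of regions that overlapped each other more than any further region. Over the 233 pairs of members, medians were 1.012 (replicate 1) and 2.375 (replicate 2), and the gap, replicate 1 minus replicate 2, had a median of -1.147 (order-statistic interval -1.273 to -1.001). On the rest the gap was -1.384 (-1.424 to -1.351) over 2433 pairs. By group the median difference ran from -0.78 in the 3L window (22 pairs) and -0.93 on chromosome 4 (31 pairs) to -1.39 in the 3R window (96 pairs) and -1.66 on U (11 pairs). Spearman's rho between the replicates' scores, across pairs, lay between 0.62 on the Het scaffolds and 0.78 in the 3R window, as a description.

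Members were narrower than the rest at the median in all 3 lists. U, chromosome 4 and the windows of 2L and 3L were each narrower in all 3 lists, while the Het scaffolds differed from the rest by 15 bases in replicate 1 and by -238.5 bases in replicate 2. The 3R window, the largest group with 115 combined regions, went the other way against the pooled arms, but not against its own arm. Its median width exceeded that of the rest of 2L, 3L and 3R by 36 bases (replicate 1), 48.5 bases (replicate 2) and 2 bases (combined list). Against the rest of 3R alone it differed by -21, -53.5 and -59 bases, in the same order. For the 2L window, against the rest of 2L, these differences were 5, -143 and -51 bases, and for 3L they were -263, -149.5 and -227 bases. The median width over all members was 2573 bases (interval 2490 to 2643), against 2746 bases (2701 to 2811) on the rest, a difference of -173 bases. Replicate 1 gave -87.5 bases and replicate 2 gave -198 bases (exact sign-flip permutation p = 0.5, the smallest possible). Among regions with scores of at least 0.5 it was -490.5 bases. Median width was 2025.5 bases on U (1869 to 2216), 2427 bases on chromosome 4 (2196 to 2658), 2506 bases on the Het scaffolds (2274 to 2715) and 2534 bases in the 3L window (2131 to 3087) in the combined list. None of the 32 regions of U or the 45 of the scaffolds reached 5 kb, and the widest were 2880 and 4582 bases. Among regions of the highest score quartile the median was 3467.5 bases over the 60 members, against 3768.5 on the rest. The windows, with 46 of these 60, were above the rest at 3956.5 bases. Of these 46, 31 lay in the 3R window (median 4005 bases) and 5 in the 3L window (3855). The 10 of the 2L window were below the rest, at 3430.5 bases. U (6 regions) was at 2358 bases, chromosome 4 (2) at 2748 and the Het scaffolds (6) at 2993. In the third quartile the median was 2810 bases in members and 3038 in the windows, against 3262 on the rest.

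In the combined list chromosome 4 had 40.7 regions per Mb (exact Poisson interval 30.6 to 53.0), against 45.2 on the rest of 2L, 3L and 3R. In replicate 2 it had 35.5 per Mb (26.2 to 47.1), against 40.1 on the rest, but in replicate 1 it had 47.3 per Mb (36.5 to 60.5), against 79.4 on the rest. Its median score in the combined list was 0.94 (0.62 to 1.45), against 1.505, and 2 of its 55 regions (3.64%) reached the highest score quartile, against 25.0% of all combined regions. These were from 85963 to 88798 (score 2.82, with 2.47 in replicate 1 and 3.00 in replicate 2) and from 462756 to 465415 (2.78, with 1.32 in replicate 1 and 3.24 in replicate 2). The third score, 2.25, lay from 332775 to 337006. The widest region, from 1045478 to 1055003, spanned 9526 bases and scored 2.00.

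Along chromosome 4, cut into 5 equal parts in the order of release 5, the combined list held 11, 10, 12, 10 and 12 regions. Both replicates met 5, 8, 10, 6 and 2 of these. Replicate 1's own list had 5, 15, 18, 20 and 6 regions in the same parts, and that of replicate 2 had 12, 8, 12, 7 and 9, so replicate 1 was thin at both ends and replicate 2 was not. From 1200555 to 1318777 lay 10 combined regions, of which 8 were met by replicate 2 only, 1 by neither and 0 by replicate 1 only. Their scores ran from 0.21 to 1.60, with a median of 0.66. This stretch was singled out after its values were seen.

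**Figure D5:**
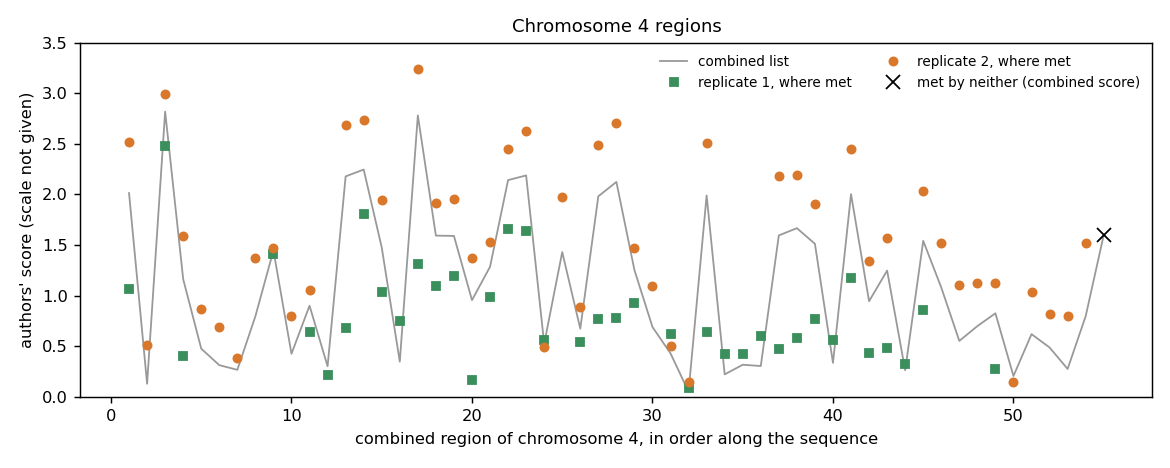
Authors' score of the 55 combined regions of chromosome 4 in their order along the sequence (line), with the score of the largest overlapping region of replicate 1 (squares) and replicate 2 (circles) where there was one; the cross is the region that neither met. Among the last 10 regions, from position 1200555, a single square remains.

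The Het scaffolds together had 4.85 regions per Mb in the combined list, against 45.2 on the rest of 2L, 3L and 3R. Density was 19.6 per Mb on the scaffold of X (5.34 to 50.2) and 17.3 on that of Y (6.34 to 37.6). Regions lay close together on these scaffolds of X and Y and were spread over most of those of 2R, 3L and 3R. The Y-chromosome scaffold (0.347 Mb) had 6, all between 300184 and 344871. Y-linked protein genes of the fly are known mostly for roles in male fertility. On this scaffold the pair from 300184 to 302777 and from 304456 to 306961 scored 2.14 and 2.18 and was present in both replicates, with 1.25 and 1.40 in replicate 1 and 2.68 and 2.68 in replicate 2. The next 3, from 312586 to 314562, from 319872 to 321897 and from 327112 to 329267, scored 0.55, 0.80 and 1.26 and were met by replicate 2 only. The last, from 343189 to 344871 (0.49), was met by neither.

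On the X scaffold (0.204 Mb) all 4 regions were met by both replicates and lay within 36.5 kb. Regions from 59798 to 63209, from 74117 to 78242 and from 83920 to 86387 scored 2.56, 1.97 and 2.21, and that from 49899 to 51736 scored 0.17. Replicate 1 gave them 1.34, 1.08, 0.65 and 0.55 in that order, and replicate 2 gave 3.00, 2.40, 2.79 and 0.06. The first 3 were therefore higher in replicate 2 and the last was higher in replicate 1.

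On the autosomal scaffolds the strongest regions were on 2RHet from 469835 to 472671 (2.81, with 1.88 in replicate 1 and 3.22 in replicate 2) and on 3LHet from 2396881 to 2400029 (2.57, with 1.92 in replicate 1 and 2.87 in replicate 2). The widest scaffold region, on 3LHet from 456925 to 461506, was higher in replicate 1 (1.70) than in replicate 2 (1.42) and scored 1.29 in the combined list. Both replicates met 11 of 13 regions of 3LHet, 6 of 10 of 2RHet, 6 of 9 of 3RHet and all 3 of 2LHet.

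Unplaced sequence U had 3.18 regions per Mb, most often of the second score quartile, with a few among the strongest of the whole list. Of its 32 regions, 5 fell in the lowest score quartile (15.6%), 16 in the second (50.0%), 5 in the third (15.6%) and 6 in the highest (18.8%). Each quartile holds about 25.0% of all combined regions, so U was below that share in every quartile but the second. The counts there, 5, 5 and 6, are small. The strongest, from 6383809 to 6386481, scored 3.52, with 1.96 in replicate 1 and 4.29 in replicate 2, and ranked 4 of all 5539. The second, from 7542073 to 7544879, scored 3.16, with 1.64 in replicate 1 and 3.67 in replicate 2. The third, from 7530961 to 7533122, scored 3.11 and met neither replicate. The widest, from 5536773 to 5539652, spanned 2880 bases and scored 2.31. The 17 regions met by replicate 2 only scored between 0.25 and 2.25 in the combined list, and between 0.12 and 2.65 in replicate 2.

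Most of the few combined regions in the upper 2 score quartiles that no replicate held were members. Neither replicate met 12 members (3.69%), against 48 regions of the rest (1.53%) and 1.68% of all combined regions. In the upper 2 score quartiles 6 combined regions met neither replicate, and 5 of these were members: on 2L from 21424221 to 21425221 (3.11), on U from 7530961 to 7533122 (3.11), from 4523375 to 4524375 (2.82) and from 7869693 to 7871534 (1.59), and on chromosome 4 from 1317777 to 1318777 (1.60). The other lay on 3R from 16974918 to 16975924 (2.65) and was 1007 bases wide. These were 5 of 149 members and 1 of 1537 regions of the rest in these quartiles, against 6 of 2769 of all combined regions. The members of scores 1.59 and 1.60 were near the middle of the list, with 50.9% and 51.1% of combined regions scoring lower. Those on 2L and chromosome 4 and the U region of score 2.82 were each 1001 bases wide, the narrowest width of the combined list, while the narrowest regions of the replicates' lists were 1301 and 1302 bases. The nearest region of replicate 2 was 38771 bases away on 2L, 4095 bases away on chromosome 4 and 8950 to 262298 bases away for the 3 on U. The region on 2L and the U region of score 3.11 had the same score to 9 decimals, which no other combined region shared. In the whole combined list 115 of 5539 regions (2.08%) shared their score with another region, and 14 of the 325 members (4.31%) did. The set of upper-quartile regions that met neither replicate was chosen after its values were seen. The sources do not tell how the combined list was made.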

How the data were processed

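H3K4me3 ChIP-seq regions of 2 ChIP samples and a combined list of the replicate set were used as the authors deposited them, on FlyBase release 5 per the file headers. Bowtie 0.12.7 is named in the submitters' processing notes; the region caller, its thresholds and the making of the combined list are not stated in any source used. The deposited score per region is the authors' own value, positive for rows typed as enriched, and its scale is not given. Region starts and ends were used as deposited. Rows typed as depleted were left out. Members and comparisons were chosen with earlier results of these data known. Named regions are the 3 highest scores and the widest region of each group, all regions of the Y and X scaffolds, and the regions beside each window limit. Shares carry Wilson, differences of shares Newcombe, densities exact Poisson and medians order-statistic intervals at 95%; no resampling of regions was done. No sequence was read, since no genome of release 5 was used. The counting and difference steps were tested on simulated lists of 3494 regions: a planted score difference of -0.4 came out as -0.43, and a planted difference in regions met of -25 percentage points as -27.6. Computation used SciPy 1.17.1, NumPy 2.4.6, pandas 2.3.3 and Matplotlib 3.10.9 under Python 3.11.15.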

Additional observations from a re-analysis of the deposited data

Results flagged for a closer look

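The 3R window moved opposite to the windows of 2L and 3L against the rest of its own arm in both replicates, and the difference between arms was not tested. For region density per Mb, window minus the rest of the arm, 3R gave 12.2 in replicate 1 and 9.43 in replicate 2. On 2L the same difference was -33.0 in replicate 1 and -12.5 in replicate 2, and on 3L -56.1 in replicate 1 and -29.0 in replicate 2. For the median score, window minus the rest of the arm, 3R gave 0.0205 in replicate 1 and 0.196 in replicate 2, 2L gave -0.05 in both (-0.048 in replicate 1 and -0.051 in replicate 2), and 3L gave -0.0277 in replicate 1 and -0.47 in replicate 2. In the combined list the score difference on 2L was 0.23, above 0, so the sign on 2L rests on the list used.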

How the results depend on the processing

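The 5 comparisons of members with the rest were recomputed under 44 alternatives, of which 34 kept their direction and moved by less than the replicates' spread or the value's own interval, 7 moved further and 3 changed sign. The width difference of -173 bases was -293 with windows of 1 Mb, -490.5 with scores of at least 0.5 and -388.5 with neighbours under 1 kb apart merged. With a single replicate's list it ran from -198 to -87.5. The -87.5 of replicate 1 became -532 with that list reduced to the number of regions of replicate 2. The score difference of -0.10 turned to 0.0091 without chromosome 4 (an alternative added after seeing the data), and ran from -0.29 to 0.015 by replicate. The 0.015 of replicate 1 became 0.16 with that list so reduced, which kept its direction within replicate 1. Both values of replicate 1 are counted above as sign changes because they were set against the -0.10 of the combined list. The density difference of -13.0 regions per Mb ran from -25.6 to -10.8 by replicate. The support difference of -5.82 points was -11.2 with windows of 1 Mb, -1.74 without U and -2.69 without chromosome 4. The cause of these changes was not tested. No paired analysis was possible because no list of an Input sample was used here, and the result comes from no test between groups. Depth is unknown, so no value could be weighted by it.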
